A study of Mus musculus with 12 samples.

Results

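The genes described here are 8 markers of the cap mesenchyme, the population of nephron progenitors that surrounds each tip of the ureteric bud: Six2, Uncx, Eya1, Cited1, Meox1, Crym, Spock2 and Ncam1. They were taken as every probe set of the deposited intensity table that the array annotation assigned to exactly 1 of these symbols. This gave 12 probe sets for 8 genes, out of 12422 probe sets and 8251 named genes. Ncam1 had 3 probe sets, Eya1 and Spock2 had 2 each, and the other 5 genes had 1.

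The arrays (Affymetrix MG_U74Av2) measured RNA from structures microdissected by their morphology from wild-type Swiss Webster mouse kidneys at E14.5 (Theiler stage 22, sex unknown), with 3 arrays in each of 4 groups. The groups were single S-shaped bodies, amplified from 1 structure per array, S-shaped bodies pooled 20 to an array, renal vesicles pooled 20 to an array, and unpooled collecting ducts, which served the study as its reference. All samples went through 2 rounds of T7 amplification. The labels do not say that arrays of a group came from separate embryos, so a p-value here reflects the spread among the arrays, which may be technical. No cap mesenchyme sample was analysed here, so all levels are set between structures that follow the progenitor stage, and against the duct.

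Cap mesenchyme cells renew themselves under the homeobox factor Six2, and part of them respond to Wnt signals from the ureteric bud by forming the renal vesicle, the first epithelial stage of the nephron. The vesicle elongates into the comma-shaped and then the S-shaped body, whose parts give rise to the glomerulus and the tubule segments. The collecting duct comes from the ureteric bud, a separate lineage. In the mouse, Six2 and Cited1 are used to mark uncommitted progenitors, Cited1 being the earlier of the pair to disappear as cells commit.

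Levels are given as log2 of quantile-normalized intensity plus a pseudocount of 7.22, so that a value of 0 or less appears as 2.85. They compare samples for the same probe set, and no probe set is ranked against another. A value counted as above background when it exceeded the array's own noise, taken as the depth of its lowest 5% of values under 0. In dissected tissue, fewer cells of a type and less RNA per cell cannot be told apart.

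Signal was clear for only some of the genes. The probe sets for Six2, one for Eya1 (94706_s_at) and 2 for Ncam1 (100153_at and 161750_f_at) were above background on all 12 arrays. The Spock2 probe sets passed on 6 (102095_f_at) and 7 (104375_at) arrays, Uncx on 6, Meox1 on 4, Crym on 3 and Cited1 on 1. Eya1 94705_at and Ncam1 100152_at were above background on 0 of 12 arrays, fell below the filter on low values and were not tested. Probe sets whose names end in _s_at or _f_at hold probes that may match related sequences as well.

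The largest change among the 8 genes was that of Uncx, a paired-type homeobox transcription factor best known for patterning the axial skeleton. Uncx read 5.49, 5.16 and 3.41 in single S-shaped bodies, 3.52, 4.15 and 4.86 in the pooled ones, 9.51, 9.16 and 8.81 in renal vesicles, and 2.85, 2.85 and 3.02 in collecting ducts. All 3 renal vesicle arrays stood far above the other 9, and the collecting ducts were at or near the floor, with 0 of 3 arrays above background. Only 1 of 3 pooled S-shaped body arrays and 2 of 3 single ones were above background, and the means of both groups lay below their background levels. With each array set at its background or its own value, whichever was higher, Uncx was at least 22.1-fold lower in pooled S-shaped bodies than in renal vesicles (fitted log2 change -4.98 ± 0.34 SE, limma adjusted p = 5.116e-06).

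Six2, the homeobox factor that keeps progenitors from differentiating, changed in the same direction by a smaller amount. Its values were 5.47, 7.13 and 6.37 in single S-shaped bodies, 6.79, 6.71 and 7.37 in the pooled ones, 7.97, 7.93 and 7.99 in renal vesicles, and 6.01, 5.89 and 5.83 in collecting ducts. The pooled S-shaped bodies lay below every renal vesicle array and above every collecting duct array, while the single S-shaped bodies ran from below the collecting ducts to within the pooled range, under every renal vesicle array. The level was 2.00-fold lower in pooled S-shaped bodies than in renal vesicles (95% CI 1.47 to 2.73, log2 change -1.003 ± 0.20 SE, limma adjusted p = 0.002792). On the deposited scale, without normalization, where pooled S-shaped bodies exceeded renal vesicles by 0.95 (log2) in the median of all probe sets, the Six2 difference was 0.08, which is -0.87 relative to that median.

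The sequence 5′ of the start site is given for these 2 homeobox genes, since both are transcription factors whose transcripts were highest in the renal vesicle and differed in how far they were lower in the S-shaped body. The stretches are the 250 bases upstream of the start in RefSeq's GRCm38.p6 annotation, 5′ to 3′ on the strand of the gene, chr17:85688255-85688504 (minus strand) for Six2 and chr5:139543648-139543897 (plus strand) for Uncx. The start that the promoter table uses for Uncx lies 33 bases inside the gene's annotated span, so the end of that stretch is within the annotated gene. Capitals mark TAATTA, the core that many homeodomain proteins bind.
Six2: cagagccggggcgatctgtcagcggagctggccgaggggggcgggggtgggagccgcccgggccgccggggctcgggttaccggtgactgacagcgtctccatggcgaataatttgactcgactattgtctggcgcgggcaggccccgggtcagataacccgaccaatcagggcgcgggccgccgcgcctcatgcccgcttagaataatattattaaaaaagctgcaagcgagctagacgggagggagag
Uncx: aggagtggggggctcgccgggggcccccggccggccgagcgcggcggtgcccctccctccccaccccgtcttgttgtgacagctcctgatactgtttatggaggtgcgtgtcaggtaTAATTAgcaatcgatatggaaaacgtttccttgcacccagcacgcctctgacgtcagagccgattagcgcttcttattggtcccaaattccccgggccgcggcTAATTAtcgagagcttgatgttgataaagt
TAATTA occurred 2 times in the Uncx window, starting at -133 and, within the annotated gene, at -30 from that start, and not in the Six2 window. Over windows of 300 bases (the 250 shown and the next 50), 5.29% of 32851 promoters held it on either strand, as it reads the same on both. TCAGGTT (part of the site that Six2 binds, in 4.07% of promoters), CTTTGAT (3.73%) and CTTTGTT (5.85%), the last pair being cores bound by Tcf and Lef factors, were searched on both strands and matched none of the 6 windows found for Six2, Uncx, Cited1 (3 windows) and Spock2. The other 4 genes had no entry in the promoter table. GC content of the 300 bases was 67.3% for Six2 and 60.7% for Uncx, against a median of 52.7% over all promoters.

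Eya1, a phosphatase and transcriptional coactivator that works as a partner of Six2, passed the test in none of the 6 comparisons. Its probe set 94706_s_at read 7.06, 6.67 and 7.03 in single S-shaped bodies, 6.42, 6.50 and 6.41 in the pooled ones, 6.39, 6.16 and 6.11 in renal vesicles, and 6.24, 6.57 and 6.32 in collecting ducts. Pooled S-shaped bodies, renal vesicles and collecting ducts ran close together, and every single S-shaped body array lay above them. The log2 difference between pooled S-shaped bodies and renal vesicles was 0.22 (95% CI -0.20 to 0.64, limma adjusted p = 0.4039), and that between renal vesicles and collecting ducts was -0.16 (95% CI -0.58 to 0.26, adjusted p = 0.5927). All 3 single S-shaped body arrays lay above all 3 pooled ones, a difference of 0.48 ± 0.24 SE that did not pass the test (limma adjusted p = 0.3371). Against renal vesicles, single S-shaped bodies were higher by 0.70 (95% CI 0.058 to 1.34, limma adjusted p = 0.1002). That difference was called only with all 12 arrays in one fit (adjusted p = 0.02194).

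Cited1, a transcriptional coregulator without a DNA-binding domain, was above background on a single array, pooled S-shaped body replicate 1. Its values were 3.76, 2.85 and 2.85 in single S-shaped bodies, 5.33, 2.85 and 4.28 in the pooled ones, 2.85, 2.92 and 4.21 in renal vesicles, and 2.85 on all 3 collecting duct arrays. With pooled S-shaped bodies between the floor and 5.33, the difference of 0.82 from renal vesicles did not pass the test (95% CI -0.45 to 2.10, limma adjusted p = 0.30), and this probe set gave no level for Cited1 at either stage.

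Meox1, a homeobox factor of the somites that also marks cap mesenchyme, was the one member higher in the collecting duct than in the pooled S-shaped body. It read 3.68, 4.28 and 4.60 in single S-shaped bodies, 3.18, 2.85 and 3.78 in the pooled ones, 5.15, 4.91 and 3.30 in renal vesicles, and 5.18, 5.35 and 4.72 in collecting ducts. None of the pooled or single S-shaped body arrays was above background, against 2 of 3 arrays in renal vesicles and 2 of 3 in collecting ducts. Meox1 was at least 1.34-fold lower in pooled S-shaped bodies than in collecting ducts (limma adjusted p = 0.01101). Throughout, "at least" sets each array of the dimmer group at its background level or its own value, whichever was higher. The difference of -1.18 ± 0.47 SE from renal vesicles missed the threshold (limma adjusted p = 0.07316). Renal vesicle replicate 4 alone read 3.30, and without it the difference was -1.76 with an adjusted p of 0.005255.

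**Figure D1:**
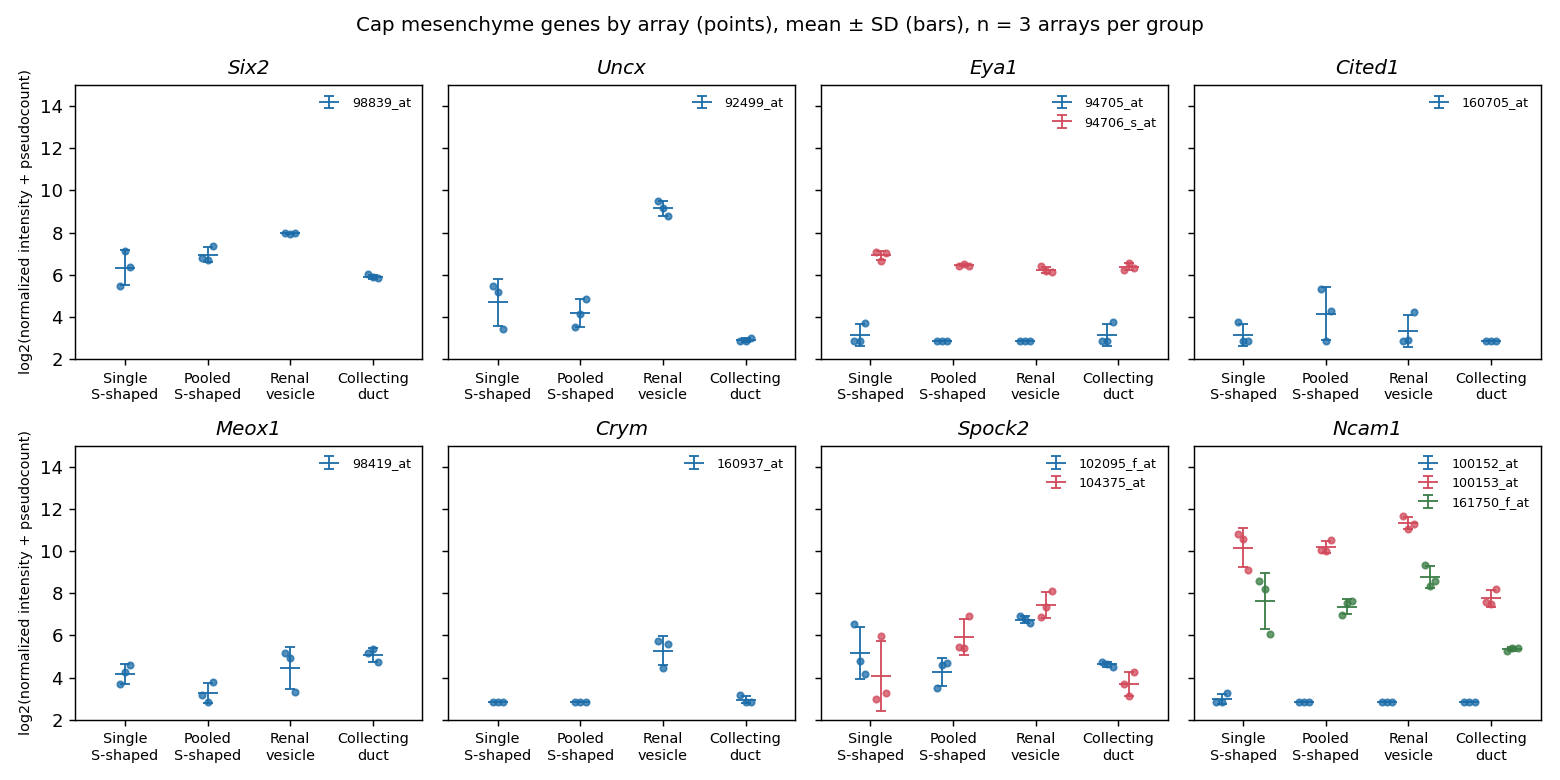
Levels of the 12 probe sets on the 12 arrays. The vertical axis is log2 of normalized intensity plus the pseudocount, the horizontal axis the 4 groups, each point 1 array and each bar the mean ± SD of 3 arrays. Uncx lies at 8.81 to 9.51 in renal vesicles and at 5.49 or lower elsewhere, while Eya1 94706_s_at stays between 6.11 and 7.06 throughout.

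The other 3 genes encode proteins outside transcription. Crym, a cytosolic protein that binds thyroid hormone, was at the floor of 2.85 on all 6 S-shaped body arrays, single and pooled. It read 5.74, 4.48 and 5.62 in renal vesicles, where all 3 arrays were above background, and 3.17, 2.85 and 2.85 in collecting ducts, where 0 of 3 were. Crym was therefore at least 1.53-fold lower in pooled S-shaped bodies than in renal vesicles (limma adjusted p = 0.0004739) and at least 1.49-fold higher in renal vesicles than in collecting ducts (adjusted p = 0.001036). Renal vesicle replicate 3, at 4.48, was just above its array's background. It lay below the background level set for pooled S-shaped bodies, 4.67, so these folds hold for group means and not for each array. Crym passed the filter on low values only in fits that held the renal vesicle arrays, where it was high. The p-values are those of fitted values floored at 0 and are given as a description.

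Spock2 encodes testican-2, a secreted proteoglycan of the extracellular matrix, and both of its probe sets were highest in renal vesicles. Probe set 102095_f_at read 6.56, 4.77 and 4.17 in single S-shaped bodies, 3.49, 4.62 and 4.69 in the pooled ones, 6.90, 6.79 and 6.57 in renal vesicles, and 4.75, 4.63 and 4.51 in collecting ducts. The second, 104375_at, read 2.97, 5.97 and 3.27 in single S-shaped bodies, 5.45, 5.41 and 6.93 in the pooled ones, 6.86, 7.34 and 8.11 in renal vesicles, and 3.70, 3.13 and 4.27 in collecting ducts. With 102095_f_at, pooled S-shaped bodies and collecting ducts each had 1 of 3 arrays above background and means below it, so their levels were not measured against each other. With 104375_at, pooled S-shaped bodies were at least 2.34-fold above the ducts (limma adjusted p = 0.003199). Against renal vesicles, pooled S-shaped bodies were lower with both, at least 4.18-fold for 102095_f_at (limma adjusted p = 0.0001979) and by a log2 change of -1.51 for 104375_at (adjusted p = 0.02633). The 104375_at call was lost in 7 alternatives, among them leaving out pooled S-shaped body replicate 1 (adjusted p = 0.09699), replicate 2 (adjusted p = 0.0979) or renal vesicle replicate 4 (adjusted p = 0.1024).

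Ncam1, the neural cell adhesion molecule, is present on mesenchyme as it condenses around the bud and was above background in every sample with 2 of its probe sets. Probe set 100153_at read 10.80, 10.57 and 9.10 in single S-shaped bodies, 10.05, 10.02 and 10.51 in the pooled ones, 11.66, 11.06 and 11.27 in renal vesicles, and 7.58, 7.50 and 8.21 in collecting ducts. Both nephron stages stood above the duct, and pooled S-shaped bodies below renal vesicles, with no overlap. Ncam1 (100153_at) was 5.38-fold higher in pooled S-shaped bodies (95% CI 3.84 to 7.54) and 11.9-fold higher in renal vesicles (95% CI 8.49 to 16.6) than in collecting ducts, with limma adjusted p of 1.116e-05 and 1.272e-06. Between the stages it was 2.21-fold lower in pooled S-shaped bodies (95% CI 1.58 to 3.09, limma adjusted p = 0.002144). Probe set 161750_f_at read 6.95 to 7.62 in pooled S-shaped bodies, 8.34 to 9.34 in renal vesicles and 5.25 to 5.42 in collecting ducts, and its changes were of like size, with -1.39 ± 0.27 SE between the stages (limma adjusted p = 0.002174).

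Counted by gene, pooled S-shaped bodies against renal vesicles gave 5 members lower (Six2, Uncx, Crym, Spock2, Ncam1), 0 higher and 3 that did not pass the test (Eya1, Cited1, Meox1). Over all 9316 probe sets tested in this comparison, 36.7% were called, 17.6% higher and 19.2% lower. By probe set, 7 of 10 tested members were called lower. Crym is among them, although it passed the filter on low values only through the renal vesicle arrays, where it was high. Without overlap between the groups, 6 lay below and 1 (Eya1 94706_s_at) above, against 24.2% below, 23.2% above and 47.4% together over all probe sets. On the deposited scale Uncx, Crym and Spock2 102095_f_at were called lower and Eya1 94706_s_at higher, with Six2 and Ncam1 not called. After normalization the median change of the 10 was -1.29, against -0.03 for all. With so large a part of the array called between these groups, the members' count is a description and is not read as particular to them.

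Several lists of other cell types moved with this comparison, in which 17.6% of all probe sets were called higher and 19.2% lower. Endothelial genes were higher in pooled S-shaped bodies for 11 of 13 measured, led by Sox18 (4.47 on the log2 scale) and Flt1 (at least 13.2-fold), with summed normalized levels of 7612 to 9256.3 in pooled S-shaped bodies, 1553.3 to 3256.2 in renal vesicles and 96.2 to 171.1 in collecting ducts, and none was at or below 0 on all arrays of either nephron stage. For the stroma list, 9 of 18 tested genes were higher, led by the collagen gene Col1a2 (5.09) and the smooth muscle actin gene Acta2 (5.03), and 1 lower, with sums of 6142.2 to 7375.6 in pooled S-shaped bodies and 703 to 2653.1 in renal vesicles; Aldh1a2 was at 0 in pooled S-shaped bodies. Of 6 red blood cell genes tested 5 were higher, led by the globin genes Hbb-y (5.26) and Hba-a1 (5.19), with sums of 5249.8 to 6993.7 in pooled S-shaped bodies and 117.9 to 814 in renal vesicles. Of 18 ureteric bud and collecting duct genes tested, 2 were higher, Krt7 (4.24) and Gata3 (2.51), and 4 lower, Epcam most (-2.83, above background on 1 of 3 pooled S-shaped body arrays), with sums of 750.5 to 1415.1 in pooled S-shaped bodies and 372.2 to 1326.5 in renal vesicles. Of 9 podocyte genes 6 were higher, led by Synpo (3.16) and Tcf21 (2.67), and of 9 skeletal muscle genes 4, led by Tnnt1 (2.29) and Actc1 (1.59), with 0 lower in either list. Both tested leukocyte genes were higher, C1qb (1.36) and Csf1r (1.04), and of 5 neuron genes Gap43 was higher (2.74) and Tubb3 lower (-0.99). Sox18, Acta2, Krt7 and C1qb were above background on 1 of 3 renal vesicle arrays, so their fitted changes are uncertain in size. The actin 3′ to middle signal ratio, a measure of RNA and amplification quality, was 3.22 to 3.93 in pooled S-shaped bodies and 7.89 to 9.02 in renal vesicles. The actin 3′ to 5′ ratio overlapped between these groups, at 31.55 to 46.62 in pooled S-shaped bodies and 36.12 to 43.34 in renal vesicles. The part of these differences in the members' changes was not tested.

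**Figure D2:**
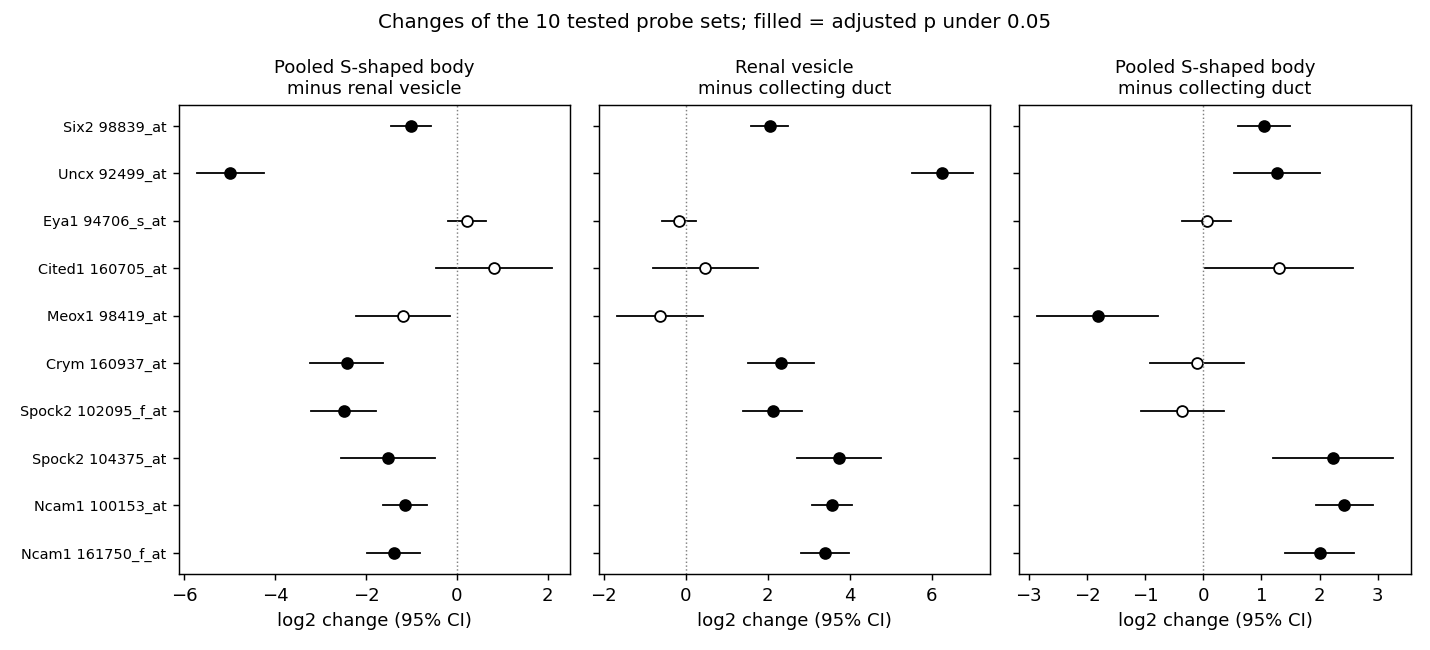
Changes of the 10 tested probe sets in the 3 comparisons of pooled samples and collecting ducts. The horizontal axis is the log2 change with its 95% confidence interval, and filled points passed an adjusted p under 0.05. For pooled S-shaped bodies minus renal vesicles the fitted Uncx interval ends at -4.24, beyond that of every other probe set, and the Eya1 and Cited1 intervals cross 0.

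The collecting duct was the reference for the first epithelial stage as well. Against it, 5 genes were higher in renal vesicles (Uncx, Ncam1, Spock2, Crym, Six2), 0 lower and 3 not called (Eya1, Cited1, Meox1), where 12.2% of all probe sets were called higher, 11.5% lower and 23.8% in either direction. By probe set, 7 of 10 tested members were called higher. Crym passed the filter on low values only through the renal vesicle arrays, where it was high. The count is a description and is not read as particular to the members. Without overlap, 7 of 10 member probe sets lay above and 0 below, against 19.2% above, 20.3% below and 39.5% together over all probe sets. Uncx was at least 21.9-fold higher (limma adjusted p = 4.418e-07), and Six2 was 4.14-fold higher (95% CI 3.04 to 5.63, adjusted p = 3.565e-05). Spock2 was at least 6.66-fold higher with 104375_at and at least 3.98-fold higher with 102095_f_at (limma adjusted p of 0.000205 and 0.0008402). On the deposited scale the calls of Six2 (0.58, adjusted p = 0.08543) and Spock2 102095_f_at (0.79, adjusted p = 0.09188) were lost. The ureteric bud and collecting duct list summed to 372.2 to 1326.5 in renal vesicles and 12673.4 to 13846.9 in collecting ducts. Of its 18 tested genes 13 were lower in renal vesicles, 1 was higher and 4 were not called. Not every gene of the list followed the labels. Wnt11 averaged 5.52 in renal vesicles (2 of 3 arrays above background) and 2.85 in ducts (0 of 3). Calb1 averaged 5.02 (1 of 3) and 2.85 (0 of 3), and Ret was at the floor in both groups. Renal vesicle replicate 3 held the 1326.5, and also the highest podocyte, endothelial and stromal sums of its group and it was the lowest of the 3 for Six2, Crym and both Ncam1 probe sets. Without it, 5 members were called higher in renal vesicles than in ducts, and 5 lower in pooled S-shaped bodies than in renal vesicles.

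Pooled S-shaped bodies against collecting ducts gave 4 members higher (Ncam1, Spock2, Uncx, Six2), 1 lower (Meox1) and 3 not called, with 18.4% of all probe sets higher, 20.1% lower and 38.5% called in all. Without overlap, 5 of 10 member probe sets lay above and 1 below, against 24.3% above, 28% below and 52.3% together. Six2 was 2.06-fold higher in pooled S-shaped bodies (95% CI 1.51 to 2.81, limma adjusted p = 0.00194), a call lost on the deposited scale (adjusted p = 0.08646). For Uncx the difference was 1.27 ± 0.34 SE (adjusted p = 0.01211), but its pooled S-shaped body mean of 4.17 lay below the background level set for the duct arrays, 4.70, so no fold is given. That call was lost with a pseudocount equal to the median (adjusted p = 0.09888) or of 50 (adjusted p = 0.21) and with all 12 arrays in one fit (adjusted p = 0.06891). The 3 comparisons among these groups share samples, so their values are given side by side and not as separate support.

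For Six2 the order of mean levels was renal vesicle, pooled S-shaped body, single S-shaped body and collecting duct, and the single S-shaped bodies differed from neither the pooled ones (limma adjusted p = 0.473) nor the ducts (adjusted p = 0.4821). For Uncx the renal vesicle came first, and the other 3 groups, with means below their background levels, have no order. For Ncam1 (100153_at) it was renal vesicle, then pooled and single S-shaped body (difference -0.03), then duct. Crym was above background in the renal vesicle alone, so the other 3 groups have no order.

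Single against pooled S-shaped bodies asked whether 1 structure gives the levels that a pool gives. Of 7 member genes tested 0 were called, 0 of their 9 probe sets had an unadjusted p under 0.05, and 0.397% of all probe sets were called by limma. Eya1 94706_s_at alone of the 9 had no overlap between these groups, against 25% of all probe sets. The intervals are wide, so this does not show equal levels: Six2 differed by -0.63 (95% CI -1.61 to 0.34) and Spock2 104375_at by -1.86 (95% CI -3.72 to 0.0029). Spread was larger in single S-shaped bodies than in pooled ones for Six2 (SD 0.83 and 0.36), Ncam1 100153_at (0.92 and 0.27), Ncam1 161750_f_at (1.34 and 0.36) and Eya1 94706_s_at (0.22 and 0.05). It was also larger for Uncx (1.11 and 0.67) and both Spock2 probe sets, which were not above background on all of these arrays. It was smaller for Cited1 (0.53 and 1.24) and near equal for Meox1 (0.47 in both). Cited1 was above background on 1 of these arrays and Meox1 on 0, so their SDs do not measure a spread of expression. The single arrays were also the dimmest, with a deposited median of 3.48 to 9.48 against 37.2 to 42.5 in pooled S-shaped bodies. Their actin 3′ to 5′ ratio was 75.76 to 91.45, against 31.55 to 46.62 in pooled S-shaped bodies.

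**Figure D3:**
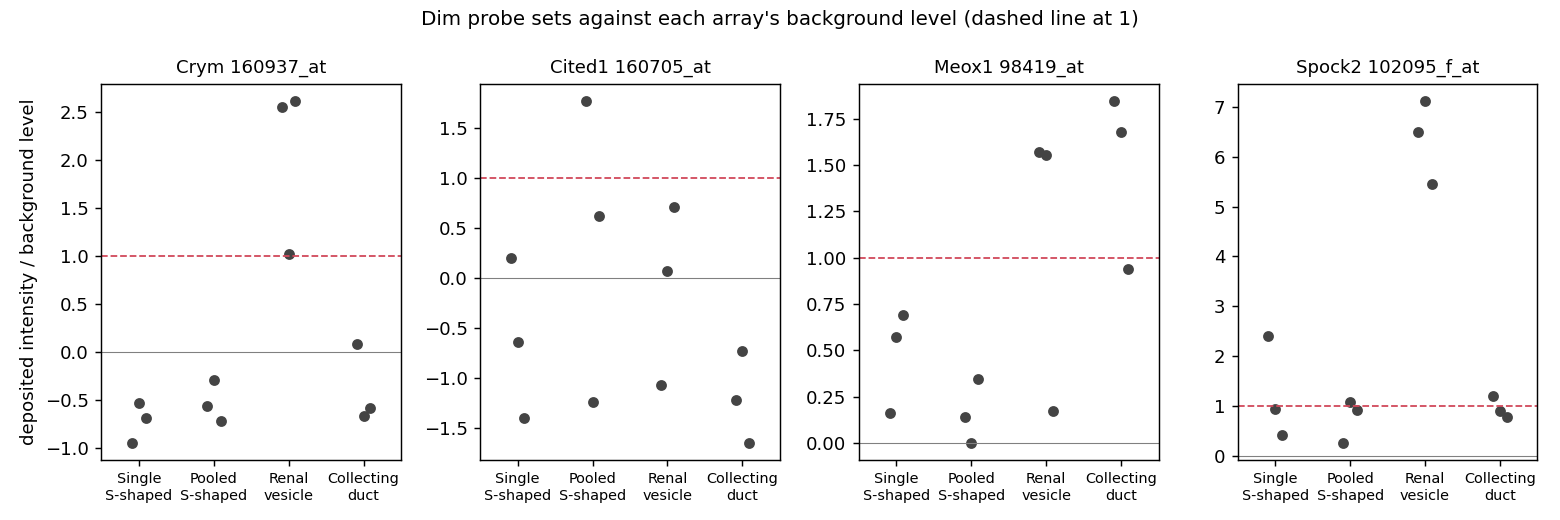
Deposited intensity of 4 dim probe sets, each value divided by the background level of its own array. The horizontal axis shows the 4 groups, each point is 1 array and the dashed line at 1 is background. Crym passes the line only on the 3 renal vesicle arrays, and Cited1 only on pooled S-shaped body replicate 1.

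Single S-shaped bodies against renal vesicles gave 4 of 7 tested genes called, all lower (Six2, Uncx, Crym, Spock2), where 27% of all probe sets were called. Crym was tested there only through the renal vesicle arrays, where it was high, so this count is a description. Of 9 member probe sets 7 did not overlap, 6 of them below, against 44.6% of all. Uncx was at least 15.4-fold lower in single S-shaped bodies (limma adjusted p = 0.0005955) and Six2 3.11-fold lower (95% CI 1.67 to 5.76, adjusted p = 0.01519). The Six2 call was lost without renal vesicle replicate 2 (adjusted p = 0.05921) or 4 (adjusted p = 0.05964). It was also lost with no filter (adjusted p = 0.07441) and with a replicate block (adjusted p = 0.08676). That of Spock2 104375_at (at least 4.04-fold lower, adjusted p = 0.01041) was lost without renal vesicle replicate 4 (adjusted p = 0.05406) and with no filter (adjusted p = 0.0803). The Crym call was lost with a replicate block (adjusted p = 0.08232). Ncam1 100153_at differed by -1.17 without passing the test (limma adjusted p = 0.05327), but was called in 7 of 17 alternatives (adjusted p 0.0003955 to 0.2202 over all of them). Against collecting ducts, 33.6% of all probe sets were called and 48.4% did not overlap (5 of 8 member probe sets). Ncam1 100153_at was 5.27-fold higher in single S-shaped bodies (95% CI 2.69 to 10.3, limma adjusted p = 0.003107). With 161750_f_at the log2 change was 2.27 (adjusted p = 0.01772). That call was lost in 5 of 16 alternatives, among them leaving out any of the 3 duct arrays or single replicate 4 (adjusted p 0.05731 to 0.06845). Uncx was called higher (adjusted p = 0.04135), with no fold given as its single S-shaped body mean of 4.69 lay below the duct background level, 4.70. The Uncx call was lost in 9 of 14 alternatives, among them leaving out any of the 3 duct arrays or single replicate 3 or 4 (adjusted p 0.09953 to 0.1195). The other 4 genes tested did not pass.

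Other genes of the progenitor program did not follow a common course between the stages. Of 26 genes listed, 17 were measured and 16 tested. Against renal vesicles, pooled S-shaped bodies were lower for 5: Mycn, a growth-promoting transcription factor, with a log2 change of -2.72, Cdh2, encoding N-cadherin, with -2.13, Six4 and Gdnf with -1.88 each, and Hoxa11 with -1.86 (limma adjusted p 5.104e-06 to 0.009097). Six4 was above background on 1 of 3 pooled S-shaped body arrays, and its mean of 4.19 lay below their background level, 4.67. The size of the Six4 change is therefore uncertain. Pooled S-shaped bodies were higher for 3, Igf2bp1 (1.39), Vim, encoding vimentin (1.17), and Cited2 (0.41), and 8 did not pass. Over all probe sets tested, 19.2% were called lower and 17.6% higher, so the counts of this list are a description. Gdnf, the growth factor that progenitors send to the ureteric bud, averaged 6.40 in pooled S-shaped bodies and 8.28 in renal vesicles. In single S-shaped bodies it averaged 3.97, with 0 of 3 arrays above background. There it was at least 2.56-fold lower than in pooled ones (limma adjusted p = 0.03442) and at least 1.16-fold lower than in ducts (adjusted p = 0.01954). It was the 1 gene of this list called between single and pooled S-shaped bodies. Over the 16 genes the median change was -0.39, against -0.03 for all probe sets.

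Against collecting ducts, 7 of the 16 were higher in renal vesicles and 0 lower, among them Cdh2 (at least 8.21-fold), Hoxa11 (at least 10.3-fold), Gas1 (4.11 on the log2 scale), Wt1 (4.03), Mycn (3.26), Gdnf (3.03) and Igf2bp1 (1.25). Over all probe sets, 12.2% were called higher and 11.5% lower in renal vesicles than in ducts. In pooled S-shaped bodies against ducts, with 18.4% of all probe sets higher and 20.1% lower, 7 of the 16 were higher. Six4 alone was lower (-2.61, uncertain in size as its pooled S-shaped body mean lay below background). As this list was also chosen with earlier results of these data known, its counts against ducts are a description. The summed level of this list was 3985.4 to 4898.1 in single S-shaped bodies, 3771 to 4122.6 in pooled S-shaped bodies, 4054.1 to 4964.7 in renal vesicles and 1421.5 to 1580.4 in collecting ducts. The same sum over the 8 members was 763.8 to 1992.9 in single S-shaped bodies, 1255.1 to 1836.4 in pooled S-shaped bodies, 3185.4 to 4459.2 in renal vesicles and 346.1 to 443.4 in collecting ducts. Ncam1 made up most of this summed signal in the nephron stages, 66.8% to 72.5% in renal vesicles. That is a share of array signal and does not rank the expression of Ncam1 against other genes. Without Ncam1 the sum was 213.8 to 323.5 in single S-shaped bodies, 226.4 to 390.4 in pooled S-shaped bodies, 1056.7 to 1224.7 in renal vesicles and 154.6 to 174.9 in collecting ducts.

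Genes that switch on as progenitors form the vesicle mostly changed in the direction of Uncx. Of 15 tested, pooled S-shaped bodies were lower than renal vesicles for 10 and higher for 2, Cdh4 (2.49) and Npnt (1.51). Over all probe sets tested, 19.2% were called lower and 17.6% higher. The list was chosen with earlier results of these data known, so its count is a description. Wnt4, the signal that drives the mesenchyme to become epithelium, was at the floor on all pooled S-shaped body arrays and at least 7.76-fold lower than in renal vesicles (limma adjusted p = 2.214e-06), and Dll1, a Notch ligand, was at least 6.44-fold lower. Papss2, a sulfate-activating enzyme, was at least 14.6-fold lower, and Ccnd1, Pax8, Sfrp2, Lhx1, Hey1, Irx3 and Cdh6 were lower as well. The median over the 15 was -1.35. Renal vesicles were higher than collecting ducts for 11 of the 15 and lower for Npnt, against 12.2% higher and 11.5% lower over all probe sets.

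**Figure D4:**
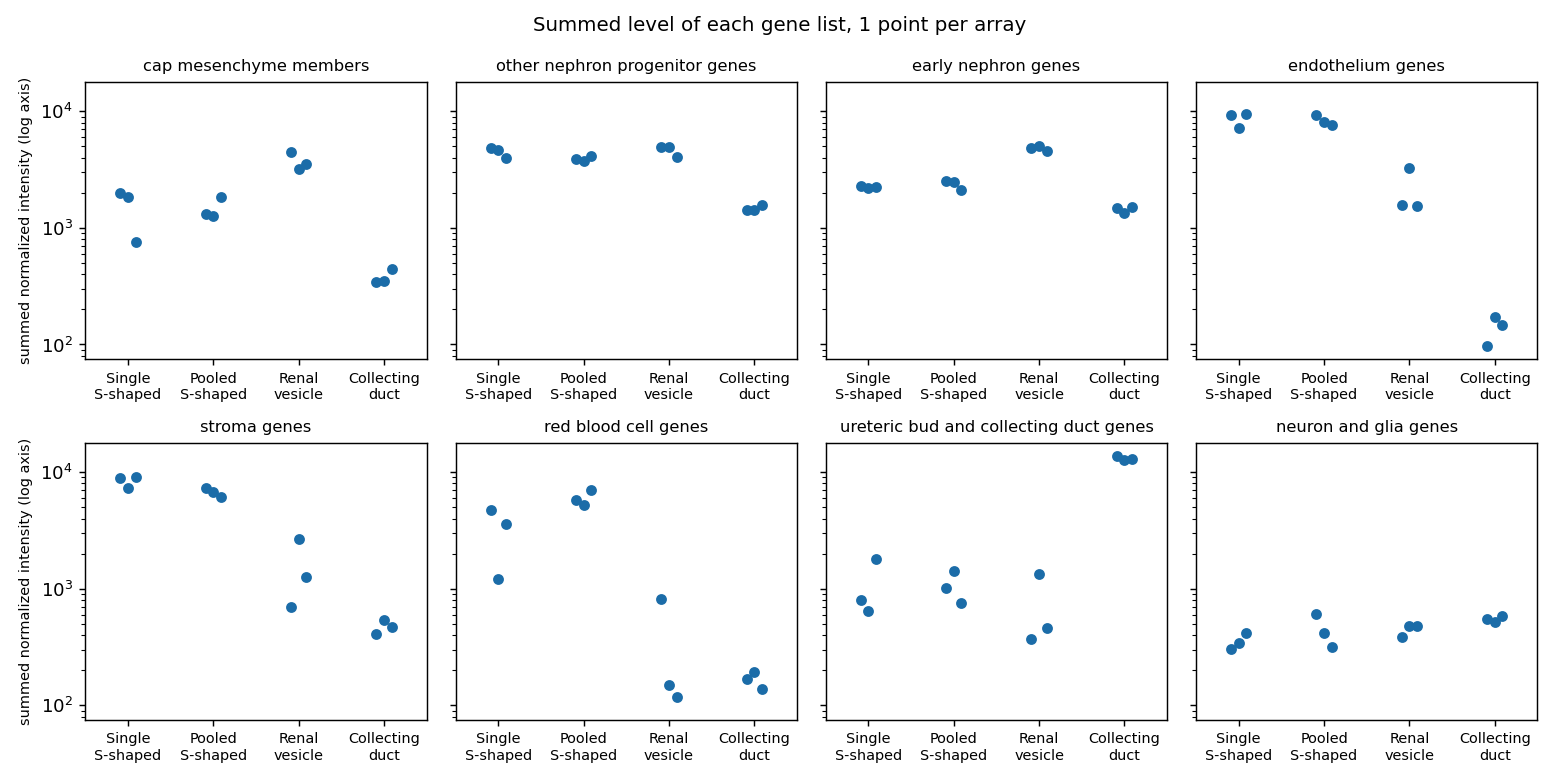
Summed normalized intensity of 8 gene lists on a log axis, 1 point per array in the 4 groups. The members sum to 3185.4 to 4459.2 in renal vesicles and at most 1992.9 in S-shaped bodies, mostly from Ncam1, while the endothelial, stromal and red blood cell sums run higher in S-shaped bodies than in renal vesicles.

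Likeness of pattern was measured as Pearson's r over the 12 arrays against 4855 genes with 1 symbol and a signal above the median, as a description; the arrays share 4 groups, so r mainly reflects group means. The gene closest to Six2 was another member, Spock2 (104375_at, r = 0.949), followed by Gatm, an enzyme of creatine synthesis (0.946), and Fads1, a fatty acid desaturase (0.923). Closest to Uncx were Chst2, a sulfotransferase (r = 0.987), AU020206 (0.98) and Cachd1 (0.969). Chst2 averaged 3.88 in pooled S-shaped bodies and 7.97 in renal vesicles, and only the 3 renal vesicle arrays were above background. Crym was closest to Papss2 (r = 0.977), Slc32a1, a vesicular transporter of inhibitory amino acids (0.974), and Gas2 (0.965), and Slc32a1 was at the floor outside renal vesicles, where it averaged 7.75. Ncam1 was closest to Irx3 (r = 0.959), Cdh2 (0.958) and Mcrs1 (0.957).

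Eya1 and Meox1 had other companions. Eya1 was closest to Mt3 (r = 0.931), Gnrh1 (0.921) and Prkcz (0.913), all with their highest mean in single S-shaped bodies. Meox1 was closest to Capg (r = 0.897), Trip12 (0.838) and B4galt6 (0.83), all highest in collecting ducts. Among 36 pairs of member probe sets r ran from -0.658 to 0.973, and 19 pairs exceeded 0.5. The 0.973 was between 2 probe sets of Ncam1, and the highest r between different genes was 0.949 (Six2 and Spock2 104375_at). The share over all pairs of probe sets was not measured, so the count is a description.

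The genes lie on 8 different chromosomes in GRCm38.p6, so no pair of members is neighbouring. Six2 spans chr17:85662736-85688254, Uncx chr5:139543865-139548179, Eya1 chr1:14168953-14311035 and Cited1 chrX:102247378-102252181. Meox1 spans chr11:101877510-101894354, Crym chr7:120186380-120201989, Spock2 chr10:60106257-60135198 and Ncam1 chr9:49502129-49799393.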

How the data were processed

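RNA of 12 samples was hybridised to Affymetrix MG_U74Av2 arrays, and the authors deposited 1 intensity per probe set and array on a linear scale with negative values; GCOS is named per the submitters' processing notes, with its settings not given in the sources used here. Array medians of the deposited intensity differed up to 17.8-fold, so values were quantile-normalized over the 12 arrays without 66 control probe sets, set to at least 0, and taken as log2 of the value plus 7.22 (25% of the median). The filter on low values cut at the 25th percentile of the mean, leaving 9316 probe sets.

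Tests used limma 3.58.1 in R 4.3.3 (moderated with a trend, Benjamini-Hochberg, adjusted p under 0.05), with one fit for pooled S-shaped bodies, renal vesicles and ducts, and pairwise fits on 6 arrays for single S-shaped bodies. The steps were tested on simulated data. A log2 change of 1 was called for 7.5% to 43.3% of the changed probe sets, depending on the comparison. For a log2 change of 3 the range was 68.2% to 98.5%. A difference that was not called is therefore not shown to be absent. The number of arrays limits the precision. "At least" folds set each array of the dim group at its background level or its own value, whichever was higher. The annotation gave 1 symbol to 10833 probe sets, several to 396 and none to 1193. Named were all member probe sets, called genes of the 2 nephron lists, the 2 most changed called genes of other lists between pooled S-shaped bodies and renal vesicles, and the 3 genes most like each member. The members and lists were chosen with earlier results of these data known. Alternatives covered scaling, pseudocount, filter, model and leaving out each array.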

Additional observations from a re-analysis of the deposited data

How the results depend on the processing

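Of 935 alternative values of member probe sets, 848 kept their direction and their side of the threshold, 37 lost a call, 25 gained one and 25 changed sign, 14 of them on the deposited scale and 0 of the other 11 for a called change; causes were not tested except where the fewer arrays or genes of a setting show them.

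On the deposited scale the median of all probe sets shifted with array brightness, by 0.95 for pooled S-shaped bodies minus renal vesicles, -0.47 for pooled S-shaped bodies minus collecting ducts, -1.39 for renal vesicles minus collecting ducts, and -2.20, -2.56 and -1.06 for single S-shaped bodies minus pooled ones, collecting ducts and renal vesicles. Called probe sets then numbered 7254 for renal vesicles against collecting ducts (3.29% higher, against 51.5% after normalization, with 2 members lower), 5436 between pooled S-shaped bodies and renal vesicles (93.9% higher, against 47.8%, with 1 member higher and 3 lower), 8298 for single against pooled S-shaped bodies (0.217% higher, against 62.2%, with 6 members lower), 8259 for single S-shaped bodies against collecting ducts (2.4% higher, against 47.3%, with 0 members higher and 4 lower) and 4300 against renal vesicles (4.91% higher, against 46.4%). For pooled S-shaped bodies against collecting ducts 25% of calls were higher, against 47.8%. Signs changed for Six2 between pooled S-shaped bodies and renal vesicles (0.079), for Eya1 between pooled S-shaped bodies and ducts (-0.37) and between single S-shaped bodies and renal vesicles (-0.62), for single against pooled S-shaped bodies in Spock2 102095_f_at (-1.01), Ncam1 161750_f_at (-2.35), Uncx (-1.18), Eya1 (-1.96) and Meox1 (-0.13), and for single S-shaped bodies against ducts in Ncam1 100153_at (-0.56) and 161750_f_at (-0.65), Spock2 102095_f_at (-1.78) and 104375_at (-0.81), Eya1 (-2.32) and Six2 (-2.23).

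Scaling to the 75th percentile called 141 probe sets between single and pooled S-shaped bodies (80.1% higher), and all 12 arrays in one fit called 426. The sign of Ncam1 100153_at turned there with that scaling (0.17) and of 161750_f_at with array weights (-0.027), and so did that of Meox1 between single S-shaped bodies and renal vesicles (0.020). Single S-shaped bodies had 1 member higher than ducts with the 75th percentile scaling, a pseudocount equal to the median or of 50, no filter, or a filter at the 50th percentile, 2 members lower than renal vesicles with no filter, and 1 higher with all arrays in one fit. With the filter at the 50th percentile Meox1 was not tested, so 0 members were lower in pooled S-shaped bodies than in ducts.

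Replicate numbers do not pair the samples: deviations from group means correlated at -0.084 to 0.05 for 11 pairs of equal number and -0.146 to 0.121 for 43 others. With a replicate block, 1372 probe sets were called between renal vesicles and collecting ducts, and 848 between single S-shaped bodies and renal vesicles, with 2 members lower; single S-shaped bodies share only number 3 with pooled ones and with ducts, so no block could be fitted there.

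Leaving out 1 array gave 1 to 62 calls between single and pooled S-shaped bodies, 1521 to 2332 between single S-shaped bodies and renal vesicles (2 to 5 members lower), 1 to 2 members higher in single S-shaped bodies than in ducts, and 0 to 1 higher in pooled S-shaped bodies than in renal vesicles, Cited1 without pooled replicate 2 (1.48, adjusted p = 0.04793). Signs changed in uncalled differences only: for pooled S-shaped bodies minus ducts, Spock2 102095_f_at (-0.57 to 0.026) and Eya1 (-0.0047 to 0.16), and for single minus pooled S-shaped bodies, Ncam1 100153_at (-0.35 to 0.50) and 161750_f_at (-0.21 to 1.03), for single S-shaped bodies minus ducts, Spock2 102095_f_at (-0.16 to 1.03), and for single S-shaped bodies minus renal vesicles, Meox1 (-0.84 to 0.082).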
